A study of Mus musculus with 10 samples.

Results

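The 2 corticosteroid receptor genes Nr3c1 and Nr3c2 and 8 genes that glucocorticoids are known to induce (Fkbp5, Sgk1, Tsc22d3, Zbtb16, Klf9, Cdkn1a, Mt1 and Mt2) were followed in mouse prefrontal cortex, 10 of the 15914 genes listed. They were chosen by name, as the receptors of the adrenal steroid corticosterone and commonly used readouts of its action. All 10 passed the filter on low values (at least 0.1 FPKM in at least 5 libraries). Bulk RNA came from wild-type C57BL/6J mice, with 5 libraries from animals exposed to hypobaric hypoxia (low oxygen through reduced air pressure) and 5 from animals given photobiomodulation, a treatment with light, after the same exposure (hypoxia + PBM). Every animal had therefore been exposed to hypoxia, and unexposed mice were not analysed here, so the values describe what went with the light treatment and not what hypoxia did. The time of day of sampling, on which corticosterone depends, was not known. No label ties a library to 1 mouse, so the spread behind each p-value may be technical.

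Corticosterone enters cells and binds receptors that wait in the cytoplasm in a complex of chaperones. The glucocorticoid receptor, encoded by Nr3c1, is found in nearly every brain cell and binds the hormone at the high levels of stress and of the daily peak. The mineralocorticoid receptor, encoded by Nr3c2, has a higher affinity and is most abundant in limbic neurons. The bound receptors move to the nucleus and switch on genes through glucocorticoid response elements, a pair of inverted half-sites with the consensus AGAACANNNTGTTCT. Among the genes so induced, Fkbp5 encodes a co-chaperone that lowers the receptor's affinity for hormone and closes a negative feedback loop.

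Levels are in FPKM, the authors' fragment counts scaled by gene length and library size, so that different genes can be set side by side. Library totals lay between 29283937 and 35957148 reads in the listed genes, and the lowest count of any of the 10 genes in a library was 596 reads, for Cdkn1a. Neuronal markers of cortex were present in both groups, with a mean of 8 excitatory markers between 4.91 and 5.04 log2(FPKM + 1) in hypoxia and between 4.98 and 5.05 in hypoxia + PBM. Markers of the neighbouring striatum differed between the groups: all 12 were called lower in hypoxia + PBM, and their mean lay between 3.57 and 4.47 log2(FPKM + 1) in hypoxia and between 2.52 and 3.45 in hypoxia + PBM. The part of this difference in the values below was addressed only by a fit with that mean as a covariate. Because the mean separated the groups without overlap, that fit cannot tell its part from that of the treatment. In bulk tissue, fewer cells of a type and less RNA per cell cannot be told apart.

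None of the 10 genes differed between the groups by limma-trend at a Benjamini-Hochberg adjusted p under 0.05, a threshold that 2.85% of the 14406 tested genes passed. At an unadjusted p under 0.05, 2 of the 10 passed (Klf9 and Zbtb16), against 19.6% of all tested genes. By limma-voom on the reads recovered from the FPKM values, 0 of the 10 were called at an adjusted p under 0.05 (background 4.12%). In that fit 3 of the 10 had an unadjusted p under 0.05, beside 2917 of the 14406 tested genes. With sample quality weights 0 were called (background 4.28%). There 2 of the 10 had an unadjusted p under 0.05, beside 2867 of the 14406 tested genes. None of the 10 had a q-value under 0.05 in the authors' deposited table, where 6.4% of the listed genes did. The libraries of both groups overlapped for all 10 genes, whereas they did not overlap for 5.53% of all tested genes. The median log2 fold change (hypoxia + PBM over hypoxia) of the 10 was -0.030, with 7 negative and 3 positive values, beside 0.00011 over all tested genes.

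**Figure D1:**
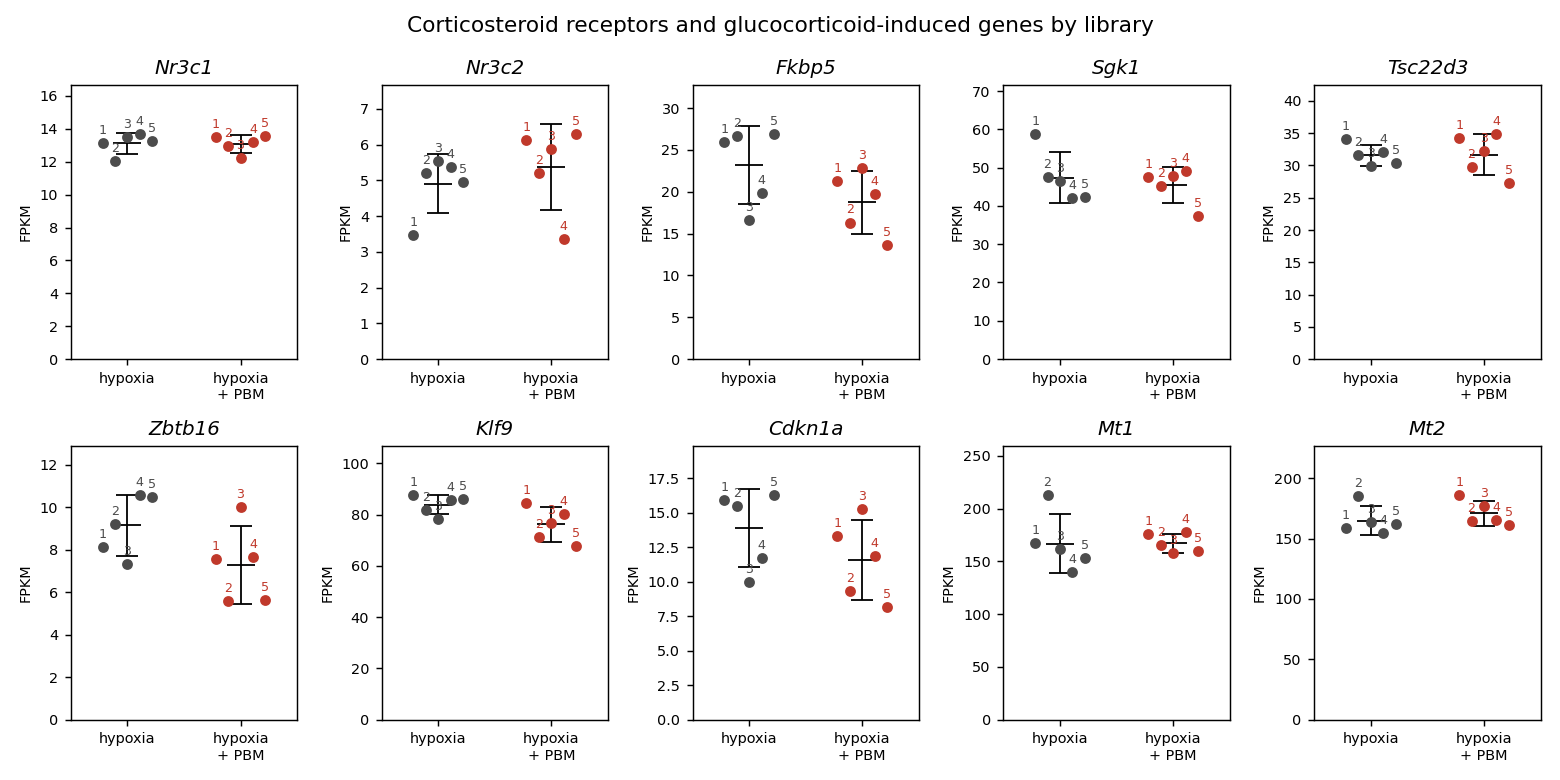
FPKM of the 10 genes in each library, with the replicate number beside each point, the group mean as a horizontal bar and the SD as whiskers (n = 5 per group, axes from 0). The groups overlap in every panel, and the widest spreads within groups, on the log2 scale, are those of Fkbp5, Cdkn1a, Zbtb16 and Nr3c2.

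The glucocorticoid receptor gene Nr3c1 was the steadiest of the 10. It was at 13.1, 12.02, 13.5, 13.7 and 13.3 FPKM in hypoxia replicates 1 to 5 and at 13.5, 12.9, 12.2, 13.2 and 13.5 FPKM in hypoxia + PBM replicates 1 to 5. No library stood out, and the highest exceeded the lowest by a factor of 1.14. Its log2 fold change was -0.0026 ± 0.043 (SE; limma adjusted p = 0.983), with a 95% interval from -0.095 to 0.090, which is 0.936-fold to 1.06-fold. The interval is the narrowest of the 10.

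The mineralocorticoid receptor gene Nr3c2 was lower and more variable. In hypoxia it was at 3.48, 5.19, 5.54, 5.37 and 4.94 FPKM, and in hypoxia + PBM at 6.12, 5.20, 5.89, 3.36 and 6.29 FPKM. One library of each group, hypoxia replicate 1 and hypoxia + PBM replicate 4, lay below the other 8. Its log2 fold change was 0.098 ± 0.14 (SE; 95% interval -0.20 to 0.39; limma adjusted p = 0.746). It was 0.0016 without hypoxia replicate 1 and 0.23 without hypoxia + PBM replicate 4. The same 2 libraries were also the lowest in the mean of 4 choroid plexus markers, at 2.07 and 0.964 log2(FPKM + 1), where the other 8 lay between 2.89 and 3.76. Because the values form 2 clusters no correlation is given, and the part of choroid plexus or of neighbouring tissue in the Nr3c2 values was not tested. The FPKM ratio of Nr3c1 to Nr3c2 was 2.75 ± 0.585 (SD, n = 5) in hypoxia and 2.57 ± 0.778 (SD, n = 5) with PBM, a difference within the spread.

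Fkbp5, the feedback co-chaperone, had a lower mean in hypoxia + PBM, at 18.7 ± 3.76 against 23.2 ± 4.70 FPKM (SD, n = 5 each), but did not pass the test. The hypoxia libraries were at 26.0, 26.7, 16.6, 19.8 and 26.9 FPKM and the hypoxia + PBM libraries at 21.3, 16.3, 22.8, 19.7 and 13.6 FPKM. Replicates 1, 2 and 5 of hypoxia lay above every hypoxia + PBM library, while its replicates 3 and 4 fell among them. The log2 fold change was -0.29 ± 0.15 (SE; limma adjusted p = 0.302) and its 95% interval ran from -0.61 to 0.029, or 0.655-fold to 1.02-fold. With the striatal marker mean as a covariate it was -0.52 (limma adjusted p = 0.834). The residual spread of Fkbp5 within groups was 0.29 log2 units (SD), larger than that of 99.7% of the 1880 tested genes with a mean level within 0.5 log2 units of its own.

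The RefSeq promoter table (build GRCm38.p6, while the submitters' processing notes name GRCm39) held 16 annotated starts for 8 of the 10 genes, and windows from 250 to 11 bases before each start were searched on both strands. The Fkbp5 window is shown because later results turn on this gene. It held neither the full response-element consensus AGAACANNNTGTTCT nor its looser core GNACANNNTGTNC, which any full match also meets, nor a half-site AGAACA, and the windows of Cdkn1a and Klf9 held none of these either. That says only that these letters are not in these windows. It held an E-box (CACGTG, the pattern bound by clock and related factors), in capitals, as did 5.69% of all 32851 windows of this length. The minus-strand window lies at chr17:28486160-28486399.
Fkbp5 promoter window: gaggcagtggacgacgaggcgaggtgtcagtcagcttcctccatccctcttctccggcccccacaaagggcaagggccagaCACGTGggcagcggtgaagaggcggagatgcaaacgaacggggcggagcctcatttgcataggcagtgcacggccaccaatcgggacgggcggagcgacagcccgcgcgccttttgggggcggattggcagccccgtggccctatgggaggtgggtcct

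Sgk1 encodes a kinase that acts on ion channels and transporters and was first described as induced by serum and glucocorticoids. It was at 58.7, 47.6, 46.5, 42.0 and 42.3 FPKM in hypoxia and at 47.5, 45.2, 47.8, 49.1 and 37.5 FPKM in hypoxia + PBM. Hypoxia replicate 1 was high and hypoxia + PBM replicate 5 low, with the other 8 libraries between 42.0 and 49.1 FPKM. Between groups the log2 fold change was -0.057 ± 0.090 (SE; 95% interval -0.25 to 0.14; limma adjusted p = 0.775). Of the 16 windows, 1 held the full response-element consensus, at 1 of the 6 annotated starts of Sgk1. Over all windows 0.00913% held it. This window is shown for that element, in capitals 189 to 175 bases before the start, together with an E-box, also in capitals. It lies on the plus strand at chr10:21993640-21993879. The deposited values do not separate transcripts by start.
Sgk1 promoter window: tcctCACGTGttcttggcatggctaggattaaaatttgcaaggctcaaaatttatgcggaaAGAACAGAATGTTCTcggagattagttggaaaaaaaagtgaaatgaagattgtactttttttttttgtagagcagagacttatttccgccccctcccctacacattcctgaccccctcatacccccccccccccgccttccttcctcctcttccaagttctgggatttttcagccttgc

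Tsc22d3, which encodes the leucine-zipper protein GILZ that carries part of the anti-inflammatory action of glucocorticoids, was level between the groups. Its values were 34.0, 31.6, 29.9, 32.1 and 30.4 FPKM in hypoxia and 34.3, 29.7, 32.3, 34.8 and 27.2 FPKM in hypoxia + PBM. Hypoxia + PBM replicate 5 was again the lowest library. Its log2 fold change was -0.0011 ± 0.062 (SE; 95% interval -0.14 to 0.13; limma adjusted p = 0.995).

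Zbtb16 encodes a zinc-finger repressor (PLZF) whose RNA responds strongly to glucocorticoids in many tissues. It had the largest change of the 10 in size, from 9.16 ± 1.43 to 7.29 ± 1.84 FPKM (SD, n = 5 each), without passing the test. The single libraries were at 8.14, 9.22, 7.33, 10.6 and 10.5 FPKM in hypoxia and at 7.58, 5.58, 10.04, 7.66 and 5.62 FPKM in hypoxia + PBM. Of the hypoxia + PBM libraries, replicate 3 alone lay high among the hypoxia values, replicates 1 and 4 lay just above the lowest of them, and replicates 2 and 5 lay below all of them. The log2 fold change was -0.31 ± 0.14 (SE; 95% interval -0.60 to -0.016; unadjusted p = 0.0403, limma adjusted p = 0.229). Over 21 alternative fits the adjusted p ran from 0.0991 (without hypoxia + PBM replicate 3) to 0.555, the latter with the striatal covariate, where the log2 fold change was -0.79.

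Klf9, a transcription factor induced by both corticosteroid receptors and by thyroid hormone in neurons, had the smallest p of the 10. It was at 87.6, 81.8, 78.2, 85.7 and 85.9 FPKM in hypoxia and at 84.6, 71.4, 76.8, 80.1 and 67.7 FPKM in hypoxia + PBM. Replicates 2, 3 and 5 of hypoxia + PBM lay below every hypoxia library and replicates 1 and 4 within their range. For Klf9 the log2 fold change was -0.14 ± 0.056 (SE; 95% interval -0.26 to -0.021; unadjusted p = 0.0250, limma adjusted p = 0.183). Its lower bound corresponds to 0.835-fold.

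Cdkn1a encodes the cell-cycle inhibitor p21, a target of the tumour suppressor p53 that glucocorticoids also induce. In hypoxia it was at 15.95, 15.5, 10.002, 11.7 and 16.3 FPKM, and in hypoxia + PBM at 13.4, 9.31, 15.3, 11.9 and 8.19 FPKM. The high and low libraries were those of Fkbp5: replicates 1, 2 and 5 were high in hypoxia, and replicates 2 and 5 were low in hypoxia + PBM. For Cdkn1a the log2 fold change was -0.25 ± 0.16 (SE; 95% interval -0.59 to 0.096; limma adjusted p = 0.426), and -0.53 with the striatal covariate (limma adjusted p = 0.850). Its spread within groups, 0.32 log2 units (SD), exceeded that of 99.8% of the 2315 tested genes of similar level. A wide spread was not particular to Fkbp5 and Cdkn1a. By the same measure Zbtb16 exceeded 99.2%, Mt1 99.0%, Nr3c2 98.5% and Sgk1 97.7% of the tested genes of similar level. For Klf9, Tsc22d3 and Mt2 the share was 87.9%, 87.5% and 81.7%, and for Nr3c1 it was 26.3%.

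**Figure D2:**
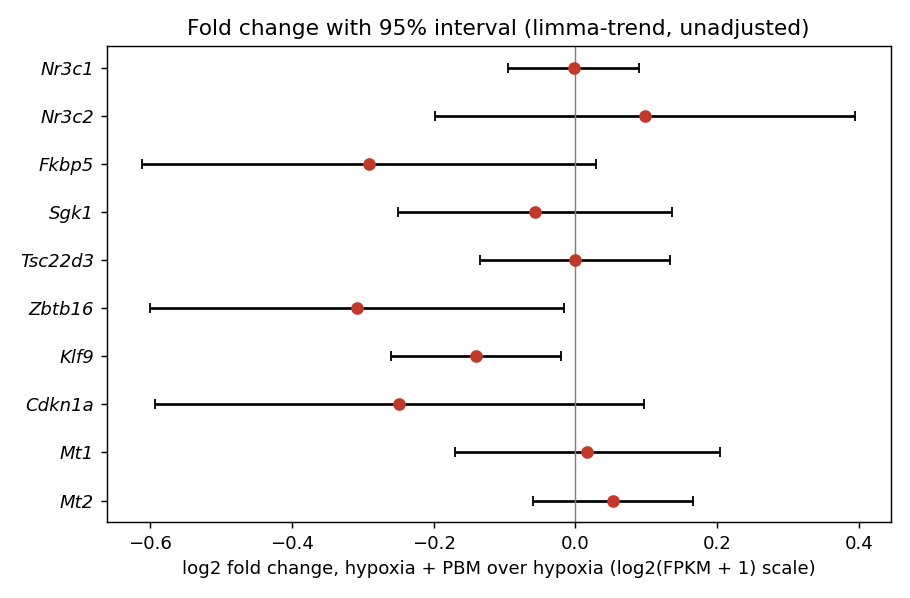
Log2 fold change of each gene, hypoxia + PBM relative to hypoxia, in log2(FPKM + 1) units, with its 95% interval from limma-trend (not adjusted for the number of genes). The intervals of Zbtb16 and Klf9 lie below 0, and the other 8 include it.

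The metallothionein genes Mt1 and Mt2 encode small cysteine-rich proteins that bind zinc and copper, are most abundant in astrocytes, and respond to both glucocorticoids and metal ions. They were the most abundant of the 10. Mt1 was at 168, 213, 161, 140 and 153 FPKM in hypoxia and at 176, 166, 158, 178 and 160 FPKM in hypoxia + PBM. Apart from a high hypoxia replicate 2 and a low hypoxia replicate 4, the libraries lay between 153 and 178 FPKM. The log2 fold change of Mt1 was 0.017 ± 0.087 (SE; 95% interval -0.17 to 0.20; limma adjusted p = 0.940). Mt2 was at 158, 186, 164, 155 and 162 FPKM in hypoxia and at 186, 164, 177, 166 and 161 FPKM in hypoxia + PBM. Hypoxia replicate 2 stood above its group in Mt2 as it did in Mt1. The log2 fold change of Mt2 was 0.053 ± 0.052 (SE; 95% interval -0.060 to 0.17; limma adjusted p = 0.617). The FPKM ratio of Mt1 to Mt2 was 1.01 ± 0.0964 (SD, n = 5) in hypoxia and 0.981 ± 0.0678 (SD, n = 5) with PBM. The coding sequences of these neighbouring genes are similar, and the handling of reads that fit both was not known. The annotation also places an antisense transcript over Mt2, whose reads cannot be told apart without strand.

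The promoter windows of both genes are shown for the motifs that they hold. The Mt1 window held a response-element core, 94 to 82 bases before the start, and a metal response element (core TGCACNC or TGCGCNC, where the metal-sensing factor MTF-1 binds) 23 to 17 bases before it. The Mt2 window held 3 metal response elements and no response-element core, which says only that those letters are not in this window. Over all windows, 0.374% held the response-element core and 20.4% a metal response element. Capitals mark these motifs. Both windows are on the plus strand, at chr8:94178839-94179078 for Mt1 and chr8:94172368-94172607 for Mt2 (GRCm38.p6).
Mt1 promoter window: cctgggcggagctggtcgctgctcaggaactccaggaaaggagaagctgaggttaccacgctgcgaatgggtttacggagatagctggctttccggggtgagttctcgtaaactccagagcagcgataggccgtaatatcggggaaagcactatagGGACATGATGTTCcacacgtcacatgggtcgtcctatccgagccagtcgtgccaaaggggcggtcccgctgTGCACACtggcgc
Mt2 promoter window: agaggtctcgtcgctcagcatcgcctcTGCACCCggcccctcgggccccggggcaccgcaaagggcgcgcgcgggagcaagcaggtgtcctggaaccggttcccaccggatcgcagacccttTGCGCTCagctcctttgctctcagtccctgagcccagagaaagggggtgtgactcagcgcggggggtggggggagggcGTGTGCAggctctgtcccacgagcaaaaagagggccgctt

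Some of the 10 genes rose and fell together from library to library. Deviations of each library from its group mean, on the log2(FPKM + 1) scale, were compared for all 45 pairs over 10 libraries, with an exact permutation test that rearranged libraries within each group (two-sided, 14400 arrangements, smallest possible p 6.9e-05). The closest pair was Fkbp5 and Cdkn1a, with Pearson's r = 0.986 (exact p = 0.000208, adjusted over the 45 pairs 0.00937) and Spearman's rho = 0.939 (exact p = 0.000347, adjusted 0.0156). Without the 2 libraries farthest from the median of Fkbp5, r was 0.98. Among 11393 tested genes with a mean of at least 1 FPKM, Cdkn1a was the most like Fkbp5 in its deviations, and Fkbp5 the most like Cdkn1a. The points share their library and its depth, as in any comparison of genes over libraries.

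**Figure D3:**
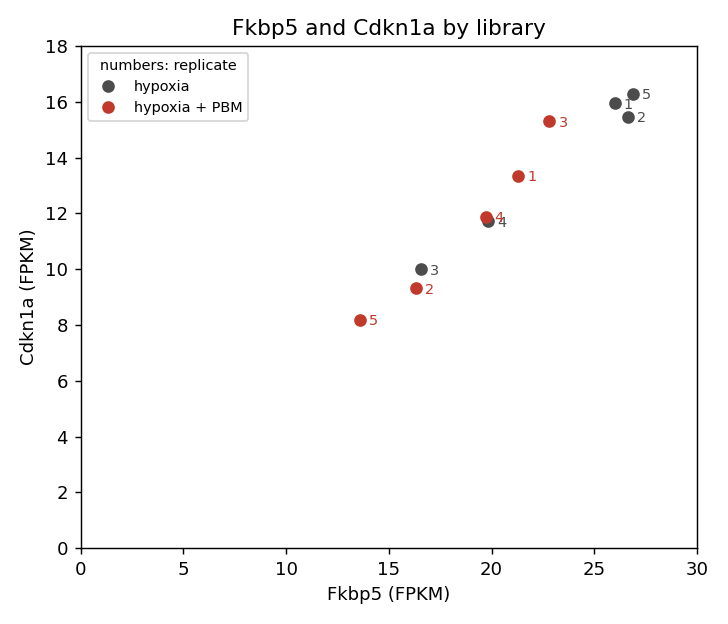
FPKM of Fkbp5 (horizontal) against Cdkn1a (vertical) in the 10 libraries, numbered by replicate within hypoxia (grey) and hypoxia + PBM (red), axes from 0. Both groups lie along one band from hypoxia + PBM replicate 5 (13.6 and 8.19 FPKM) to hypoxia replicate 5 (26.9 and 16.3 FPKM).

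The other pairs were weaker. Klf9 and Tsc22d3 had r = 0.904 (exact p = 0.00361, adjusted 0.0813) and rho = 0.891 (exact p = 0.00701, adjusted 0.158), with r = 0.854 without the 2 farthest libraries. Sgk1 and Tsc22d3 had r = 0.758 (exact p = 0.00736, adjusted 0.11) and rho = 0.77 (exact p = 0.0108, adjusted 0.163), and r fell to 0.555 without the 2 farthest. Fkbp5 and Zbtb16 had r = 0.689 (exact p = 0.0383, adjusted 0.209) and rho = 0.588 (exact p = 0.0869, adjusted 0.399), which was 0.431 without the 2 farthest. The receptor gene Nr3c1 and Fkbp5 had r = -0.572 (exact p = 0.101, adjusted 0.302), rho = -0.588 (exact p = 0.105, adjusted 0.399) and r = -0.404 without the 2 farthest. Mt1 and Mt2 had r = 0.73 (exact p = 0.0419, adjusted 0.209) and rho = 0.491 (exact p = 0.175, adjusted 0.399). Without the 2 libraries farthest in Mt1, r of this pair was 0.217, so the relation rests on those libraries. Zbtb16 and Cdkn1a had r = 0.739, Klf9 and Cdkn1a 0.733, Fkbp5 and Klf9 0.732, and Fkbp5 and Tsc22d3 0.678. Each of these had an exact p under 0.05 and an adjusted p of 0.209. Without the 2 farthest libraries r was 0.603, 0.635, 0.382 and 0.310. In all, 31 of the 45 pairs had a positive r, 9 had an exact p under 0.05 and 1 passed after adjustment. The share of positive r over pairs of all tested genes was not computed.

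Of the 35 other glucocorticoid-induced genes on a list of known targets, 6 followed Fkbp5 over libraries with r of at least 0.8, which is 17.1% of the list, where 0.993% of all tested genes did. The median r was 0.36 over the list and 0.0072 over all tested genes. These 6 genes, named here after their values were seen, were Plin4, a coat protein of lipid droplets (r = 0.923, rho = 0.867), the lipid transporter Mfsd2a of the blood-brain barrier (0.894 and 0.903), the sulfotransferase Sult1a1 (0.883 and 0.77), the kinase Map3k6 (0.851 and 0.721), the hypoxia-inducible factor subunit Hif3a (0.842 and 0.539) and the phagocytic receptor Mertk (0.817 and 0.588). Without the 2 libraries farthest from the median of Fkbp5, r was 0.863 for Plin4 and 0.841 for Map3k6 and fell below 0.8 for the other 4, to 0.727 for Mfsd2a, 0.726 for Sult1a1, 0.569 for Hif3a and 0.551 for Mertk, so these 4 rest on those libraries at that threshold. Plin4 was at 4.38, 5.04, 2.26, 2.62 and 3.67 FPKM in hypoxia and at 4.08, 2.65, 4.14, 3.07 and 1.03 FPKM in hypoxia + PBM. Hypoxia replicates 3 and 4 and hypoxia + PBM replicate 5 were among its low libraries, as they were for Fkbp5. Sult1a1 was at 3.57, 3.97, 2.42, 2.45 and 3.30 FPKM in hypoxia and at 4.53, 4.39, 4.71, 4.47 and 2.64 FPKM in hypoxia + PBM, so the same 3 libraries were low in it. Map3k6 and Hif3a were low throughout, at up to 0.753 and 1.32 FPKM. The count of 6 was 3 without hypoxia + PBM replicate 5 (8.57% of the list against 1.02% of all tested genes) and 10 without hypoxia replicate 5 (28.6% against 1.73%). The list was drawn up with earlier results of these data known and holds genes that answer to other signals too. Genes outside it also reached r of at least 0.8 with Fkbp5. Of 15 tested relatives of the 10 genes 1 did (Sgk3, r = 0.899), and of 8 metal-responsive genes and metallothionein relatives 1 did (Slc39a14, r = 0.881). Both are named after their values were seen. Of 8 astrocyte markers 1 did, and the remaining related and marker lists held none.

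**Figure D4:**
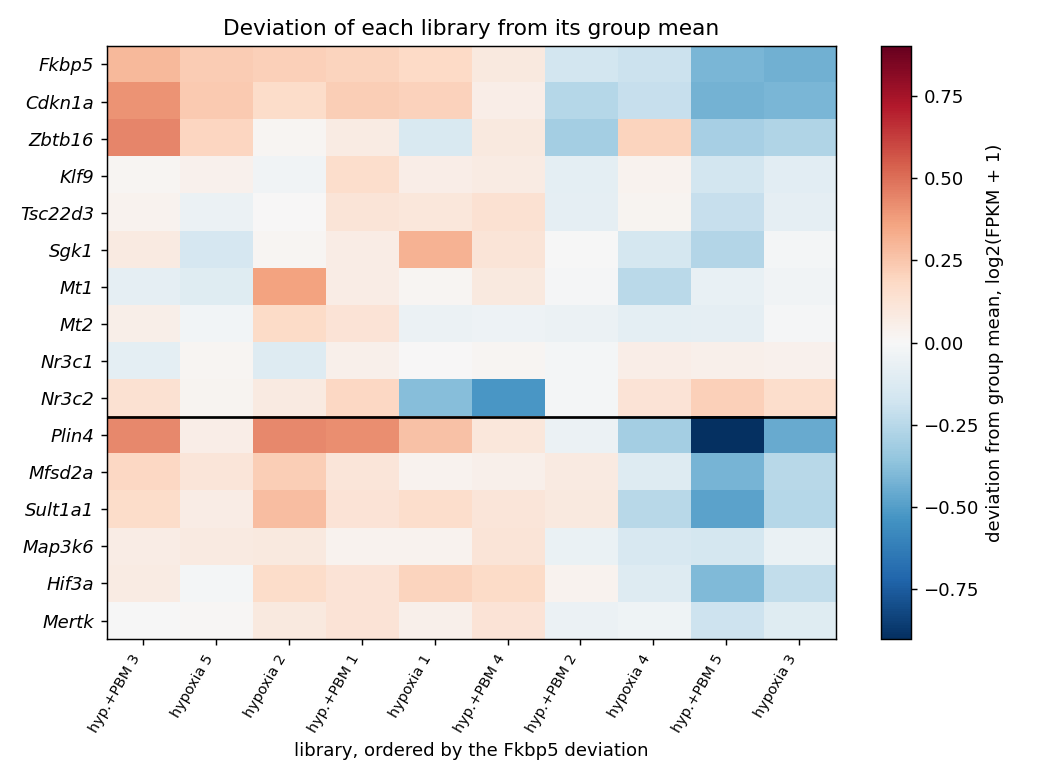
Deviation of each library from its group mean in log2(FPKM + 1), for the 10 genes (above the line) and the 6 list genes that followed Fkbp5 (below it), with libraries ordered by Fkbp5. Cdkn1a keeps nearly the order of Fkbp5. Of the 10 genes, all but Nr3c1 and Nr3c2 have hypoxia replicate 3 and hypoxia + PBM replicate 5 below their group mean (blue). The 6 list genes do too, but they were chosen by their r with Fkbp5, which was lowest in these libraries of each group. These 2 libraries also had the highest mitochondrially encoded share of reads of their groups (4.93% and 5.09%).

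The mean of 7 microglial markers ran against Fkbp5, with r = -0.918 (exact p = 0.0016, adjusted over 130 relations 0.122) and rho = -0.782 (exact p = 0.014, adjusted 0.362), and with r = -0.742 without the 2 farthest libraries. Against Cdkn1a the same mean had r = -0.895 (exact p = 0.00187, adjusted 0.122), rho = -0.745 (exact p = 0.0301, adjusted 0.396) and r = -0.768 without the 2 farthest. It lay between 4.83 and 5.11 log2(FPKM + 1) in hypoxia and between 4.72 and 5.01 in hypoxia + PBM, and 0 of its 7 markers were called between the groups by limma-trend. The 130 relations joined the 10 genes with 11 cell type marker means, the library total and the mitochondrially encoded share of reads. Of them 17 had an exact p under 0.05 and none passed after adjustment. The microglial mean also had r = -0.775 with Tsc22d3, -0.755 with Zbtb16 and -0.732 with Klf9. Their exact p was 0.0142, 0.0193 and 0.0265, and each adjusted p was 0.331. Without the 2 farthest libraries r was -0.627, -0.720 and -0.756. For Sgk1, Mt1 and Mt2 r was -0.543, -0.306 and -0.399, and for Nr3c1 and Nr3c2 it was 0.558 and 0.448. The relations of oligodendrocyte and interneuron markers with Fkbp5 and Cdkn1a, given next, did not pass after adjustment either. The mean of 8 oligodendrocyte markers had r = -0.705 (exact p = 0.0374, adjusted 0.331) and rho = -0.879 (exact p = 0.00479, adjusted 0.311) with Fkbp5, and r = -0.682 and rho = -0.745 with Cdkn1a. The mean of 6 interneuron markers had r = 0.741 (exact p = 0.0347, adjusted 0.331) and rho = 0.721 (exact p = 0.0305, adjusted 0.396) with Fkbp5, and r = 0.731 and rho = 0.636 with Cdkn1a. Without the 2 farthest libraries r with Fkbp5 was -0.527 for oligodendrocytes and 0.637 for interneurons. The mean of 8 astrocyte markers had rho = -0.903 (exact p = 0.00243, adjusted 0.311) and r = -0.737 (exact p = 0.0408, adjusted 0.331) with Klf9. With Tsc22d3 it had rho = -0.794 (exact p = 0.0152, adjusted 0.362) and r = -0.716. Without the 2 farthest libraries r was -0.798 for Klf9 and -0.397 for Tsc22d3. With Fkbp5 and Cdkn1a r was -0.513 and -0.491, and with Nr3c2 it was 0.718. The mitochondrially encoded share of reads was highest, within each group, in hypoxia replicate 3 (4.93%) and hypoxia + PBM replicate 5 (5.09%). Its r was -0.651 with Fkbp5, -0.630 with Cdkn1a, -0.734 with Zbtb16, -0.652 with Klf9 and -0.662 with Tsc22d3. Without the 2 farthest libraries these were 0.172, 0.0365, -0.879, -0.370 and -0.295. For Sgk1, Mt1, Mt2, Nr3c1 and Nr3c2 r was -0.373, 0.0155, -0.305, 0.390 and 0.156. The part of cell type content or of this share in the shared variation was not tested.

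Lists of genes for hormone supply and receptor function held 0 or 1 called gene each, beside 2.85% called of all tested genes, and lists this short give no measure of their own share. Of 14 receptor chaperones none was called, with a median log2 fold change of -0.00043, and the smallest p was that of the chaperone Hspa4 (0.064, limma adjusted p = 0.264). Hsd11b1, which regenerates active corticosterone inside cells, rose from 10.3 ± 1.51 to 13.5 ± 1.42 FPKM (SD, n = 5 each; log2 fold change 0.37 ± 0.086 SE, limma adjusted p = 0.0396) and was the only called gene of 5 tested for steroid metabolism and transport. Its groups overlapped and of the 10 fits with 1 library removed, its call held without hypoxia replicate 2 and without hypoxia + PBM replicate 4. In the other 8 the adjusted p went up to 0.0943. Among 14 co-regulators of nuclear receptors, 11 had a positive change and 1 was called higher, the chromatin remodelling ATPase Smarca4 (0.17 ± 0.037 SE, limma adjusted p = 0.0274). It lost its call without hypoxia replicate 1, 2 or 5 and without hypoxia + PBM replicate 1, 2 or 3 (highest limma adjusted p = 0.0722). Of 7 tested genes that glucocorticoids repress, Nr3c1 itself among them, none was called, and the smallest p was that of the cytokine Il1b, at 0.181 ± 0.0411 and 0.144 ± 0.106 FPKM (SD, n = 5 each; limma adjusted p = 0.69).

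Among the 35 other glucocorticoid-induced genes 3 were called lower in hypoxia + PBM and none higher, against 1.7% called lower and 1.15% called higher of all tested genes. The list's median log2 fold change was -0.075, with 24 negative and 11 positive values. Irs2, an adaptor of insulin signalling, fell from 11.6 ± 0.947 to 8.83 ± 0.859 FPKM (SD, n = 5 each; log2 fold change -0.36 ± 0.065 SE, limma adjusted p = 0.0146). The transcriptional repressor Bcl6 fell from 6.85 ± 0.355 to 5.62 ± 0.335 FPKM (SD, n = 5 each; -0.25 ± 0.049 SE, limma adjusted p = 0.0199). Pdk4, a kinase that restrains the entry of pyruvate into mitochondria, fell from 4.85 ± 0.591 to 3.51 ± 0.347 FPKM (SD, n = 5 each; -0.37 ± 0.075 SE, limma adjusted p = 0.0213). Irs2 and Bcl6 separated the groups without overlap, and Pdk4 did not. Bcl6 lost its call without hypoxia replicate 1 and without hypoxia + PBM replicate 1, and Pdk4 without hypoxia replicate 1 or 2 and without hypoxia + PBM replicate 3, with adjusted p up to 0.0553. Over libraries Bcl6 and Pdk4 had r = -0.088 and -0.015 with Fkbp5 (rho = -0.16 and -0.0061). Irs2 had r = 0.748 and rho = 0.855 with it, under the threshold of 0.8 on r but with a rho above that of 4 of the 6 genes that passed it.

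**Figure D5:**
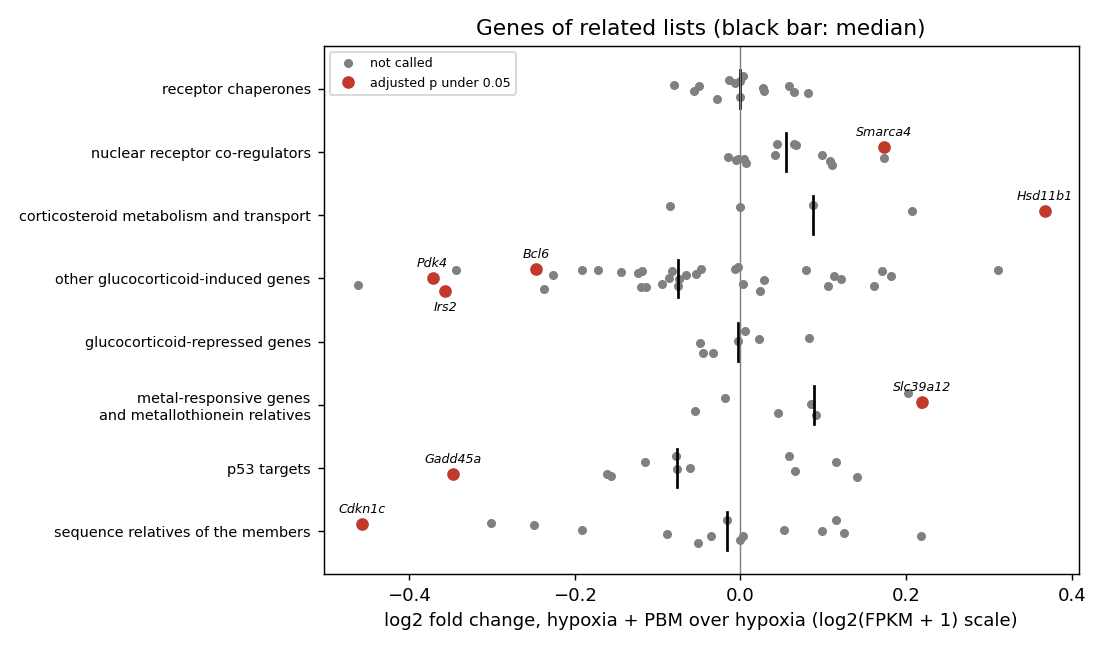
Log2 fold change (hypoxia + PBM over hypoxia, in log2(FPKM + 1) units) of each tested gene in 8 related lists, with called genes in red and named, and the list median as a black bar. In all, 5 genes were called lower and 3 higher.

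Genes that share other inputs of Cdkn1a and the metallothioneins, and relatives of the 10 genes, gave 1 call per list, again beside 2.85% called of all tested genes. Of 11 tested p53 targets 1 was called, the stress gene Gadd45a, which fell from 7.56 ± 0.875 to 5.74 ± 0.761 FPKM (SD, n = 5 each; log2 fold change -0.35 ± 0.083 SE, limma adjusted p = 0.0433). Its call held without hypoxia replicate 4 and without hypoxia + PBM replicate 2 and in none of the other 8 such fits (up to 0.102). Of 8 tested metal-responsive genes and metallothionein relatives, the zinc importer Slc39a12 was called, higher at 13.2 ± 0.480 against 11.2 ± 0.376 FPKM (SD, n = 5 each; 0.22 ± 0.038 SE, limma adjusted p = 0.0117). The third brain metallothionein, Mt3, was at 382 ± 23.3 and 445 ± 42.4 FPKM (SD, n = 5 each; limma adjusted p = 0.0821) and is named after its values were seen. Among 15 tested relatives of the 10 genes, Cdkn1c, which encodes the p57 inhibitor related to p21, fell from 6.49 ± 0.322 to 4.48 ± 0.631 FPKM (SD, n = 5 each; -0.46 ± 0.073 SE, limma adjusted p = 0.00852). Slc39a12 and Cdkn1c kept their calls in each of the 10 fits without 1 library. With the striatal marker mean as a covariate none of these 8 called genes remained called (limma adjusted p from 0.555 to 0.896). In that fit the log2 fold change was -0.51 for Cdkn1c, -0.46 for Irs2, -0.36 for Bcl6, -0.41 for Pdk4 and -0.39 for Gadd45a. It was 0.21 for Slc39a12, 0.095 for Smarca4 and 0.29 for Hsd11b1. The striatal marker mean separated the groups without overlap, so its part and that of the treatment cannot be told apart. Of 10 endothelial markers 3 were called higher in hypoxia + PBM. With the endothelial marker mean as a covariate all 8 genes lost their calls too. The limma adjusted p ran from 0.0570 for Slc39a12 and 0.0594 for Cdkn1c and Irs2 to 0.280 for Gadd45a. Without the filter on low values Hsd11b1 and Gadd45a were not called (limma adjusted p = 0.0569 and 0.0610).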

How the data were processed

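RNA of prefrontal cortex was sequenced in 10 libraries, 5 per group, by the labels. The submitters' processing notes name fastp 1.0, HISAT2, HTSeq and the build GRCm39, without order, settings or strand. Per the file headers, the authors computed FPKM for each gene and library. The authors' deposited group means are a signal, read counts divided by DESeq2 size factors and averaged. The authors also deposited a fold change as a linear ratio, its log2 value, a p-value and a q-value per gene, quoted only where their table is named.

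The 10 genes, the lists and the tests were chosen with earlier results of these data known. limma-trend (limma 3.58.1, R 4.3.3) compared the groups on log2(FPKM + 1), with no covariate, over 14406 genes with at least 0.1 FPKM in at least 5 libraries. This scale understates changes of low genes. Calls are at a two-sided Benjamini-Hochberg adjusted p under 0.05. FPKM and group means together gave back the reads, and 100% of values came out whole within 0.01 reads. They served for depth and for limma-voom only. Counting error is small for the 10 genes, whose lowest count was 596 reads. It is larger for low genes such as Il1b, Map3k6 and Hif3a. Pairs of libraries within a group differed beyond counting noise (chi-square per gene 5.97 to 13.8). Scripts were tested on simulated data. Named were all 10 genes, and of each list the up to 3 called genes with the smallest p, or else 1 gene. The rule that names genes most alike applied to called members, of which there were none. The 21 alternatives changed pseudocount, filter, scaling, test, covariate, block or library; those of the correlations were added after seeing the data.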

Additional observations from a re-analysis of the deposited data

Results flagged for a closer look

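In groups of 5 libraries, the gap between the most extreme library and its nearest neighbour was compared with the range of the group, and 4 of the 40 groups checked (20 named genes) exceeded Dixon's critical value of 0.71. Chance flags about 1 in 20 groups. Hypoxia replicate 1 was low in Nr3c2, at 3.48 FPKM. Hypoxia replicate 2 was high in Mt2, at 186 FPKM. Hypoxia + PBM replicate 1 was high in Pdk4, at 4.12 FPKM. Hypoxia replicate 5 was low in Slc39a12, at 10.6 FPKM.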

How the results depend on the processing

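None of the 10 genes was called under any of the 21 alternatives. Fkbp5, Cdkn1a, Zbtb16 and Klf9 stayed negative in all of them, with Fkbp5 between -0.40 and -0.19 and Cdkn1a between -0.35 and -0.14 over the fits that left out 1 library, and Mt2 was between 0.023 and 0.096 there. Log2 changes near 0 changed sign without being called. Nr3c1 was at 0.010 with upper-quartile scaling and 0.067 with the striatal covariate, and between -0.031 and 0.020 without 1 library. Tsc22d3 was at 0.00064 with median-ratio scaling, 0.012 with upper-quartile scaling, 0.0086 by limma-voom with quality weights and 0.044 with the endothelial covariate, and between -0.036 and 0.050 without 1 library. Nr3c2 was at -0.10 with the striatal and -0.12 with the endothelial covariate, Sgk1 at 0.068 with the endothelial covariate and between -0.097 and 0.022 without 1 library, Mt1 between -0.043 and 0.11 without 1 library, and Mt2 at -0.0093 and Il1b at 0.052 with the striatal covariate. The cause was not tested.

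The 5 lower and 3 higher calls in the related lists became 2 to 7 lower and 1 to 5 higher without 1 library, where fewer samples entered the fit. Replicate numbers did not pair the libraries (correlations of same-numbered deviations from -0.0721 to 0.205, with replicate 2 the only number whose libraries matched best). With the replicate block, 1 list gene was called higher and 5 lower, and Hsd11b1, Smarca4 and Irs2 lost their calls. Over all tested genes, 245 lower and 166 higher calls became 151 and 105 with the replicate block, 22 and 17 with the endothelial covariate, and none with the striatal covariate (896 genes at an unadjusted p under 0.05). Without 1 library they ranged from 116 to 335 lower and from 73 to 203 higher.

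The correlation of Fkbp5 with Cdkn1a stayed between 0.98 and 0.991 in all its alternatives. The 6 list genes that followed Fkbp5 became 10 at r of at least 0.7, and 3 to 10 without 1 library.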
